A study of Mus musculus with 8 samples.

Results

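The cytosolic ribosomal protein genes of the mouse aorta were examined as a family in ApoE-/- and WT mice. Members were taken by symbol, as the genes named Rpl or Rps followed by a number and an optional short suffix, together with Rplp0, Rplp1, Rplp2 and Rpsa, and without the Rps6k kinases. This rule found 83 of the 21859 genes in the count tables, and it used no measured value. The members were 43 proteins of the large subunit, 31 of the small subunit, the 3 proteins of the stalk and 6 paralogues (Rpl3l, Rpl7l1, Rpl10l, Rpl22l1, Rpl39l and Rps27l). Of the 79 canonical ribosomal protein genes, 77 were members, since 2 do not carry such a symbol. The members lay on 19 chromosomes, with 4 of them on the X chromosome.

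The aortas came from male C57BL/6 mice aged 40 weeks and kept on a normal (chow) diet, 4 with a germline knockout of ApoE and 4 WT, with 1 library for each mouse. ApoE-/- mice lack apolipoprotein E, which clears lipoprotein remnants from blood, and are an established model of atherosclerosis. Total RNA of the whole aorta, depleted of ribosomal RNA, was sequenced in a strand-specific way with paired reads of 50 bases. The gene-assigned read pairs numbered 23240995 to 23940156 in ApoE-/- and 18375898 to 21664598 in WT libraries. All pairs listed numbered 67231818 to 72143353 and 65355678 to 75627250, which overlapped, and the share of them on genes was 32.3% to 35.6% in ApoE-/- and 27.9% to 30.2% in WT. Both the pairs on genes and this share were higher in every ApoE-/- library (for each, exact permutation over 70 assignments, two-sided p = 0.0286, below which 4 against 4 cannot go, and adjusted p = 0.0686 over 12 library measures). The unit of each p-value is the mouse. The WT mice were not stated to be littermates of the ApoE-/- mice. Apoe itself had 14.7 to 36.3 CPM in ApoE-/- and 536 to 857 CPM in WT aortas (log2 fold change −4.83, edgeR adjusted p = 0.0141), where CPM is the count per 1e6 counts after TMM scaling.

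A ribosome reads messenger RNA with its small subunit and joins amino acids in its large subunit. The stalk proteins recruit the translation factors that hydrolyse GTP. Ribosomal protein messenger RNAs begin with a run of pyrimidines, the TOP motif, through which mTORC1 sets their translation, so that ribosome production can change without a change in transcript level. Their genes have also left many processed pseudogenes in mammalian genomes, which are intronless copies of the messenger RNA.

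The copies bear on every count here, because only read pairs with a unique place in the genome were counted. Among GENCODE M21 transcripts, 80 of the 83 members shared at least 1 stretch of 50 bases, the length of a read, with another gene. The median member had 64.1% of its coding-transcript stretches to itself, against 99.7% for all 21688 genes that could be scored. Fewer than 50% of the stretches were unique in 28 members, while 8.73% of all genes were below that value. Processed pseudogenes with a shared stretch numbered 120 for Rpl7a, 81 for Rpl21, 79 for Rpl29 and 71 for Rps2, but 1 for each of Rpl4, Rpl8, Rps3 and Rps9. One coding stretch of each of 3 such genes is printed to show sequence that a read could not tell apart (GRCm38, GENCODE M21, plus strand). The Rpl7a stretch, in exon 5 of 8 at chr2:26912379-26912428, was found in 45 other genes, 42 of them processed pseudogenes. The Rpl21 stretch, in exon 4 of 6 at chr5:146834994-146835043, was found in 33 other genes, and the Rpl29 stretch, in exon 4 of 4 at chr9:106431177-106431226, in 32.
Rpl7a: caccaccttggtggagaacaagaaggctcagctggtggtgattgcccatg
Rpl21: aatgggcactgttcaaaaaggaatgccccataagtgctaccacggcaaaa
Rpl29: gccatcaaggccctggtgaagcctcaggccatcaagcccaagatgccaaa
A read of such a stretch alone has no unique place in the genome.

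The start sites were examined in RefSeq windows of 300 bases, from 250 bases before to 50 after the annotated start, which were at hand for 63 of the 83 members in 75 windows (GRCm38.p6). A pyrimidine tract, with the letters CTTTTC or with CTTTCC, or else with CTTTCT or with the overlapping CCTTTC, lay within 10 bases either side of the start, on the sense strand, in 14 member windows (18.7%) and in 2.49% of all 32851 windows. Other runs of pyrimidines were not searched for, so a window without these letters may still hold such a run. The ETS letters CCGGAAG, searched on both strands in the whole window, were in 36.0% of member windows and 8.86% of all windows. The YY1 letters AAGATGG were in 16.0% and 6.34%, and the SP1 letters GGGCGG in 60.0% and 35.7%. The E-box CACGTG was in 10.7% and 7.15%. The TATA letters TATAAA were rarer among members, with 9.33% against 13.6%. The starts of 5 members whose values follow are printed, from 10 bases before to 20 after the start. Capitals mark only the letters searched for, and a run of pyrimidines may extend beyond them.
Rplp2: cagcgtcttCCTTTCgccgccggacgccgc
Rpl7a: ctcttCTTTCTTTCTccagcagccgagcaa
Rpl38: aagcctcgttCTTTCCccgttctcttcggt
Rps10: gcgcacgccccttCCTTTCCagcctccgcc
Rpl35: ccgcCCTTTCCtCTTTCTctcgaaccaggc
They lie at chr7:141447641-141447670 (plus strand) for Rplp2, chr2:26910797-26910826 (plus) for Rpl7a, chr11:114668570-114668599 (plus) for Rpl38, chr17:27635225-27635254 (minus) for Rps10 and chr2:39005112-39005141 (minus) for Rpl35. These letters are a description of the windows and not a measurement of transcription or translation.

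Counts differed widely between the members. Per kilobase of exon, the highest canonical members were Rplp1, a stalk protein, with 309.9 CPM per kb, Rps15, of the small subunit head, with 195 CPM per kb, Rpl4, which lines the exit tunnel, with 189 CPM per kb, and Rpl8, next to the peptidyl transferase centre, with 181 CPM per kb. The lowest were Rpl35 with 1.13 CPM per kb and Rpl23a with 1.25 CPM per kb, both at the mouth of the exit tunnel, followed by Rps10 with 1.52 and Rpl28 with 1.62 CPM per kb. The highest canonical member was 273 times the lowest. The 7 canonical members with at most 1 processed pseudogene sharing a stretch had a median of 76.4 CPM per kb, the 35 with 2 to 9 had 9.60 CPM per kb and the 35 with 10 or more had 6.54 CPM per kb. Across the 77 canonical members, Spearman's rho was −0.34 between CPM per kb and the number of such pseudogenes and 0.34 between CPM per kb and the share of unique coding stretches. These are correlations across genes of the same 8 libraries, and exon length was the union of exons over all annotated transcripts. Ranks between members were therefore read as ranks of countable signal, and the rest of the results compare each gene with itself between genotypes.

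**Figure D1:**
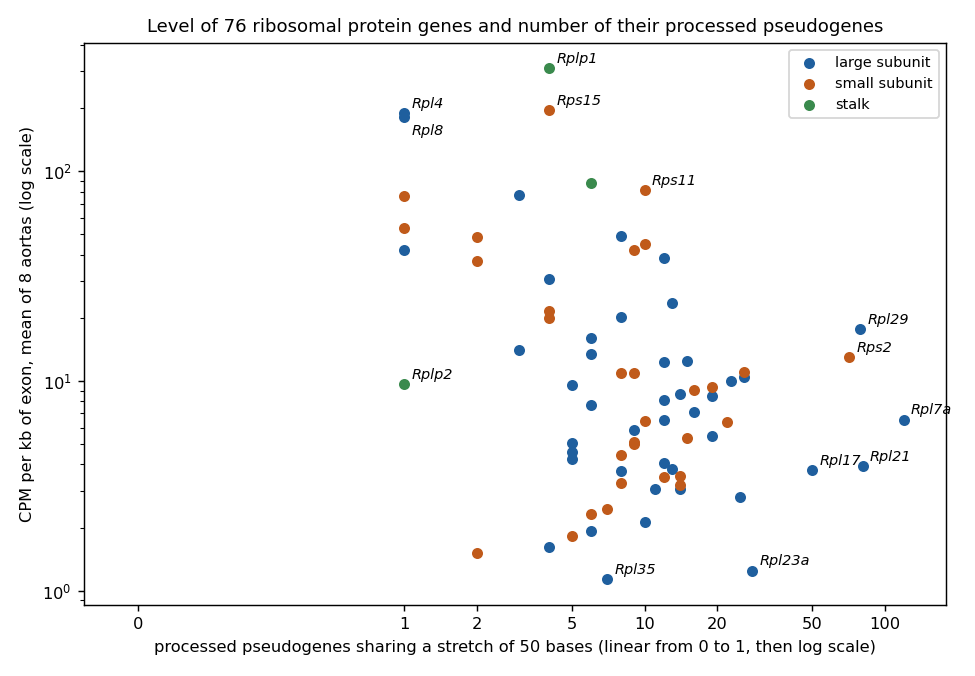
Mean CPM per kb of exon over the 8 aortas (vertical axis, log scale) against the number of processed pseudogenes that share a stretch of 50 bases (horizontal axis, linear from 0 to 1, then log scale) for 76 canonical members, coloured by subunit. Rpl4 and Rpl8, with 1 such pseudogene each, lie at 189 and 181 CPM per kb, and Rpl35 and Rpl23a lie lowest.

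All members together took 0.290% of the counts on genes in ApoE-/- replicate 1, 0.350% in replicate 2, 0.315% in replicate 3 and 0.443% in replicate 4, and 0.352%, 0.408%, 0.349% and 0.350% in WT replicates 1 to 4. The ApoE-/- aortas thus lay both below and above all WT aortas. The mean share was 0.349% ± 0.0668 (SD, n = 4) in ApoE-/- and 0.365% ± 0.0289 (SD, n = 4) in WT. Taken over all read pairs listed, the direction turned, with 0.117% ± 0.0277 in ApoE-/- and 0.106% ± 0.0113 in WT. Summed CPM was 1538 ± 300 (SD, n = 4) in ApoE-/- against 1552 ± 65.2 in WT for the large subunit, 1600 ± 367 against 1665 ± 97.8 for the small subunit and 322 ± 90.2 against 318 ± 14.9 for the stalk. In each of these sums the ApoE-/- range enclosed the WT range. In whole tissue, a lower level cannot be told apart from fewer cells of a type that holds much of the transcript.

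No member passed the test between genotypes. Of the 83 members, 80 had enough counts for the edgeR fit (quasi-likelihood F test), and 0 had an adjusted p under 0.05, where 0.464% of all 15077 tested genes did, 0.371% higher and 0.0929% lower in ApoE-/-. limma-voom also called 0 members (0.192% of all genes), and DESeq2 called 1, Rpl9, where it called 4.29% of all genes in either direction and 1.45% of all genes as lower. An unadjusted p under 0.05 in edgeR was reached by 3 members, Rpl9, Rpl21 and Rps24, all lower in ApoE-/-, against 11.4% of all genes in either direction and 4.17% lower. The median log2 fold change was −0.05 over the members and 0.05 over all genes tested, with 24 members above 0 and 56 of 80 below, while 42.0% of all genes lay below 0. The large subunit had 13 above and 30 below 0 (median −0.05), the small subunit 9 and 22 (median −0.06) and the stalk 1 and 2. The 95% confidence interval of the log2 fold change lay within −1 to 1 for 74 of the 80 members (92.5%, against 70.4% of all genes) and within −0.5 to 0.5 for 36 (45.0%, against 32.7%). A change of 2-fold or more thus lay outside the interval of those 74 members.

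**Figure D2:**
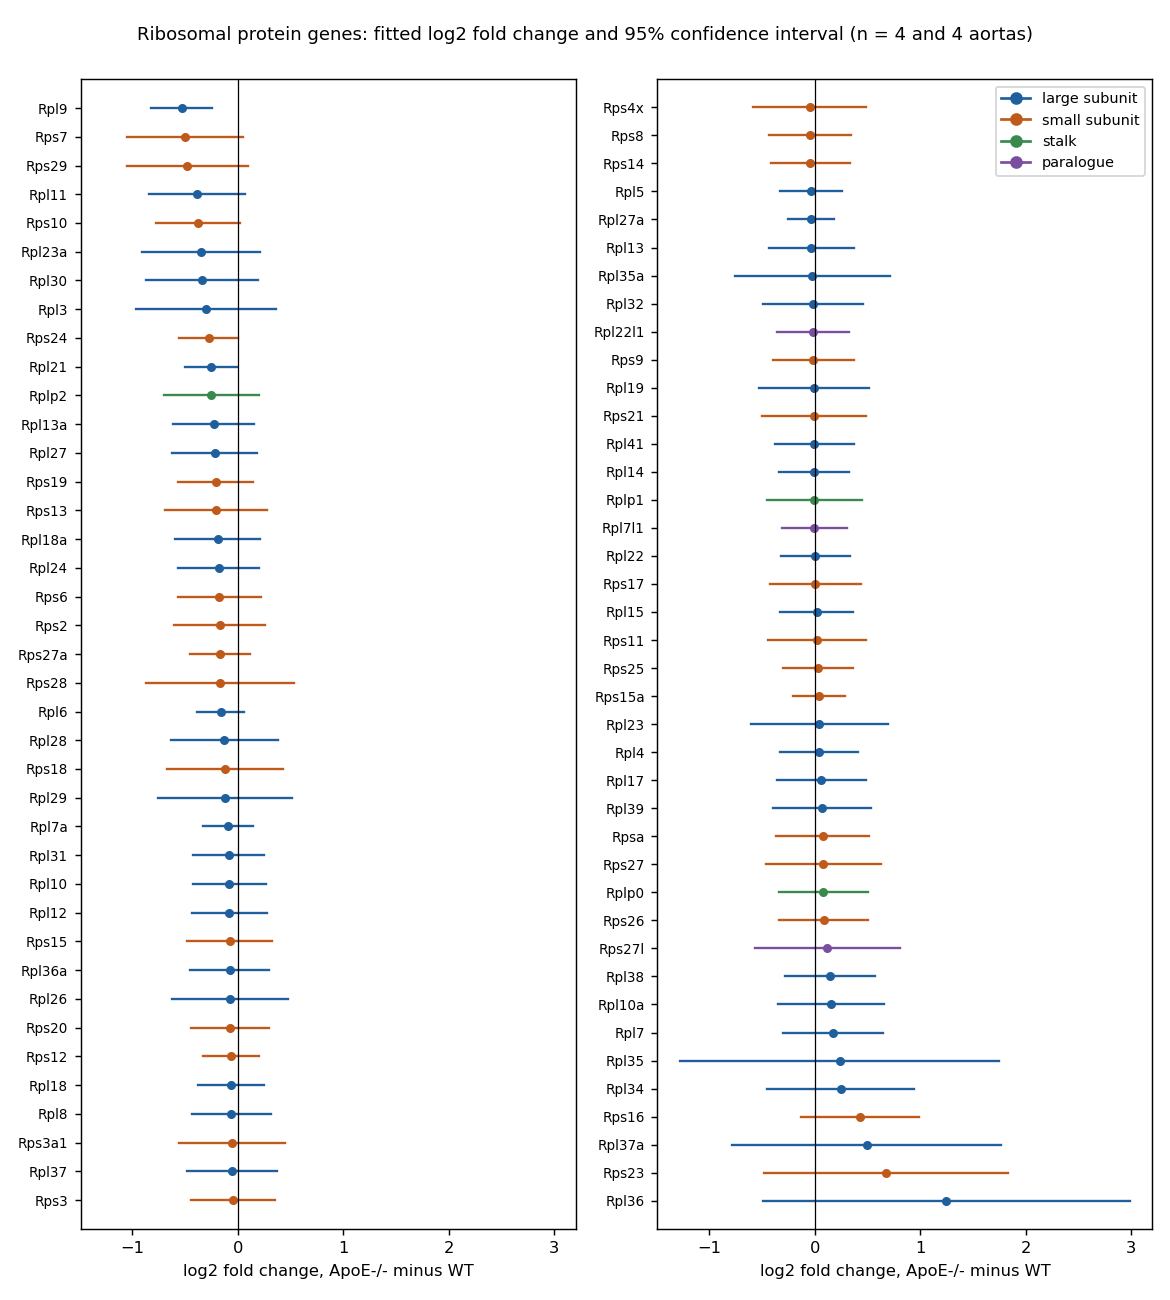
Fitted log2 fold change (ApoE-/- minus WT, horizontal axis) of 79 tested members, in rising order from the top of the left panel to the foot of the right one, with 95% confidence intervals as lines and subunit by colour. Only the intervals of Rpl9, Rpl21 and Rps24 leave out 0, and those of Rpl35, Rpl37a, Rps23 and Rpl36 are the widest.

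The 3 stalk genes differed less between genotypes than among ApoE-/- aortas. Rplp1 had 124, 140, 132 and 222 CPM in ApoE-/- replicates 1 to 4 and 135, 168, 153 and 162 CPM in WT replicates 1 to 4. Rplp0, the protein that anchors the stalk, had 109, 137, 145 and 207 CPM in ApoE-/- and 138, 138, 146 and 143 CPM in WT. In both genes ApoE-/- replicate 4 was the highest of all aortas and ApoE-/- replicate 1 the lowest. Their log2 fold changes were −0.0026 (95% CI −0.45 to 0.45) for Rplp1 and 0.08 (−0.34 to 0.51) for Rplp0. Rplp2, the partner of Rplp1, was lower on average in ApoE-/- (18.3 ± 5.19 against 21.8 ± 2.02 CPM, SD, n = 4), with a log2 fold change of −0.25 (−0.71 to 0.20) and edgeR adjusted p = 0.751.

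The large subunit gene with the lowest fitted value was Rpl9, whose protein sits near the base of the stalk (ENSMUSG00000047215.14, chr5:65388364-65391444, minus strand). It had 9.74, 11.6, 10.98 and 8.72 CPM in ApoE-/- replicates 1 to 4 and 15.8, 15.4, 14.2 and 13.9 CPM in WT. Every ApoE-/- aorta was below every WT aorta. The log2 fold change was −0.53 (SE 0.125, 95% CI −0.82 to −0.25) with edgeR adjusted p = 0.109. DESeq2 gave −0.54 with adjusted p = 0.00833. With an aorta left out, its adjusted p-values were 0.00552 to 0.0428 where it still called Rpl9. It did not call Rpl9 without WT replicate 1, 2 or 3, where it called 2.85%, 3.01% and 2.94% of all genes. Over both tools, the log2 fold change of Rpl9 stayed within −0.61 to −0.46 in every fit with an aorta left out.

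Rpl9 shares nearly all of its coding sequence with a copy. Rpl9-ps6, annotated as a protein-coding retrogene of 1 exon (chr19:32465865-32466578, minus strand), differed from the Rpl9 coding sequence at 1 of 576 bases, G266A, counted from the first coding base. A stretch of 50 bases around this position is shown for both genes, with the differing base in capitals, at chr5:65389561-65389610 in exon 5 of Rpl9 and at chr19:32466244-32466293 in the copy.
Rpl9: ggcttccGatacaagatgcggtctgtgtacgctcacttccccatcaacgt
Rpl9-ps6: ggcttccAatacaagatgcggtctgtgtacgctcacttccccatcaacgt
The copy took 735 to 1271 counts per library and Rpl9 itself 201 to 344, so that the copy held 74.6% to 86.3% of their joint counts in ApoE-/- and 70.6% to 75.5% in WT aortas. In ApoE-/- replicate 4 the copy was at its highest of all aortas and Rpl9 at its lowest. With the copy's counts added to Rpl9, the sum was 43.5, 45.6, 43.8 and 63.9 CPM in ApoE-/- and 57.0, 52.6, 55.0 and 56.6 CPM in WT, which overlapped. The log2 fold change of the sum was −0.17 (95% CI −0.49 to 0.15), with edgeR adjusted p = 0.766 and DESeq2 adjusted p = 0.822, and neither tool then called a member. The copy alone had −0.06 (−0.47 to 0.36). As the copy held most of the joint counts, the sum follows the copy more than it follows Rpl9. Whether reads were placed on the wrong one of these genes was not tested.

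The same arrangement was found for 3 other parents. Rps27rt had the whole coding sequence of Rps27 without a difference (252 bases) and took 834 to 1657 counts where Rps27 took 76 to 132. Rps18-ps5 differed from Rps18 at 3 of 456 coding bases and took 535 to 928 counts, against 262 to 509 for Rps18. Rpl36a-ps1 differed from Rpl36a at 7 of 318 coding bases and took 126 to 244 counts, against 56 to 82 for Rpl36a. Each of these copies has 1 exon, and each outnumbered its parent in every library. The sums of parent and copy had log2 fold changes of 0.0062 (95% CI −0.46 to 0.47) for Rps27, −0.03 (−0.45 to 0.38) for Rps18 and 0.08 (−0.31 to 0.48) for Rpl36a.

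**Figure D3:**
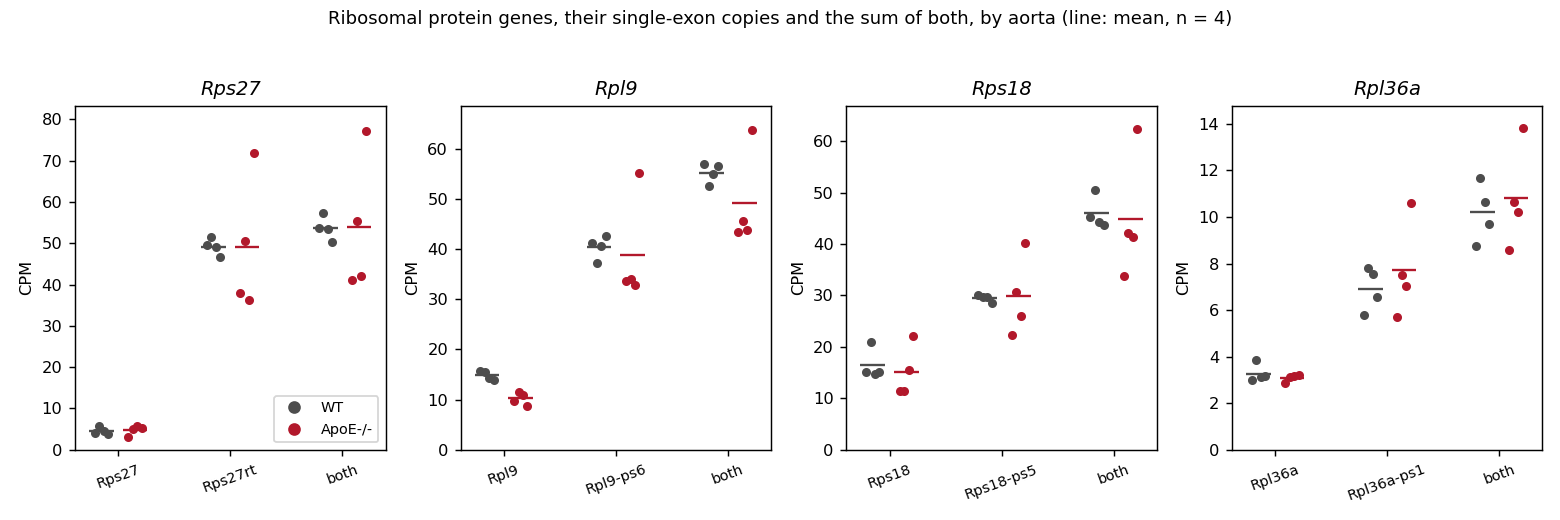
CPM (vertical axes, from 0) of 4 members, of their single-exon copies and of both summed, with 1 point per aorta, WT in grey and ApoE-/- in red, and lines at the mean of 4. Each copy lies above its parent, and the 2 genotypes, apart for Rpl9 alone, overlap once the copy is added.

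Rpl36, of the large subunit, was far higher in 1 aorta than in the others. It (ENSMUSG00000057863.6, chr17:56613416-56614243) had 69, 62, 43 and 444 counts in the ApoE-/- libraries, in replicate order, and 72, 59, 32 and 70 in those of WT mice. Only ApoE-/- replicate 4 stood apart, and its log2 fold change, the highest of the family, was 1.25 with a 95% CI of −0.49 to 2.99. DESeq2 gave Rpl36 no adjusted p. Rpl35 had 11, 15, 22 and 93 counts in ApoE-/- and 30, 22, 23 and 31 in WT, again with replicate 4 alone above all others. Its log2 fold change was 0.24 (−1.28 to 1.75), and without ApoE-/- replicate 4 it was −0.91. Of the coding-transcript stretches, 18.9% were unique in Rpl36 and 4.91% in Rpl35. The part of shared sequence in these counts was not tested.

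Rpl37a, a zinc-binding protein of the large subunit, divided the aortas without regard to genotype. It had 6.17, 24.9, 22.6 and 34.6 CPM in ApoE-/- replicates 1 to 4 and 23.7, 8.14, 8.53 and 22.3 CPM in WT. The aortas fell into 3 with at most 8.53 CPM and 5 with at least 22.3 CPM, and both levels occurred in each genotype. The log2 fold change was 0.49 (95% CI −0.78 to 1.77), and it was 0.19 without ApoE-/- replicate 4 and 0.80 without ApoE-/- replicate 1. Rpl34 was high in 1 aorta, ApoE-/- replicate 2, with 26.1 CPM against 9.46 to 19.7 CPM in the other 7, and had a log2 fold change of 0.25 (−0.45 to 0.94).

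Rpl3, which reaches into the peptidyl transferase centre, had 13.4 CPM in ApoE-/- replicate 1 and 32.7 to 39.9 CPM in the other 7 aortas. Its log2 fold change was −0.30 (95% CI −0.96 to 0.36). Rpl23a had the lowest mean CPM of the tested members, with 18 to 32 counts per library, and a log2 fold change of −0.35 (−0.91 to 0.21). Rpl7a varied least, with 10.96 to 11.6 CPM in ApoE-/- and 11.01 to 12.7 CPM in WT. Rpl27a was nearly as steady, with an SD of log2 CPM over the 8 aortas of 0.0822 against 0.0820 for Rpl7a. Rpl7a also had the most processed pseudogenes with a shared stretch, and 18.8% of its coding-transcript stretches were unique.

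Of the small subunit genes, Rps23, which lines the decoding centre, had the highest fitted value (ENSMUSG00000049517.8, chr13:90922958-90924950). It had 3.00, 3.15, 3.01 and 12.6 CPM in ApoE-/- replicates 1 to 4 and 3.40, 3.14, 3.27 and 3.83 CPM in WT. ApoE-/- replicates 1 to 3 lay near the lowest WT value, and replicate 4 was above all other aortas. The log2 fold change was 0.68 (95% CI −0.48 to 1.83) with all aortas and −0.16 without ApoE-/- replicate 4. Rps16 had 1.99, 2.27, 3.31 and 2.99 CPM in ApoE-/- and 2.25, 1.73, 2.33 and 1.53 CPM in WT. Its genotypes overlapped, its log2 fold change was 0.43 (−0.13 to 0.99) and its edgeR adjusted p was 0.608.

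Rps7, Rps29 and Rps10 had the lowest fitted values of the small subunit. Rps7 had 10.6, 17.9, 15.2 and 16.4 CPM in ApoE-/- and 23.5, 28.7, 18.01 and 14.9 CPM in WT, so that WT replicates 1 and 2 were the highest and WT replicate 4 lay among the ApoE-/- values. The log2 fold change was −0.50 (95% CI −1.05 to 0.05, edgeR adjusted p = 0.503). For Rps29, which binds zinc near the decoding site, the value was −0.48 (−1.05 to 0.09) on only 28 to 58 counts per library. For Rps10 it was −0.38 (−0.78 to 0.02) on 64 to 91 counts, and ApoE-/- replicate 1, with 3.65 CPM, was the only one of its genotype to reach the WT values of 3.42 to 4.21 CPM.

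**Figure D4:**
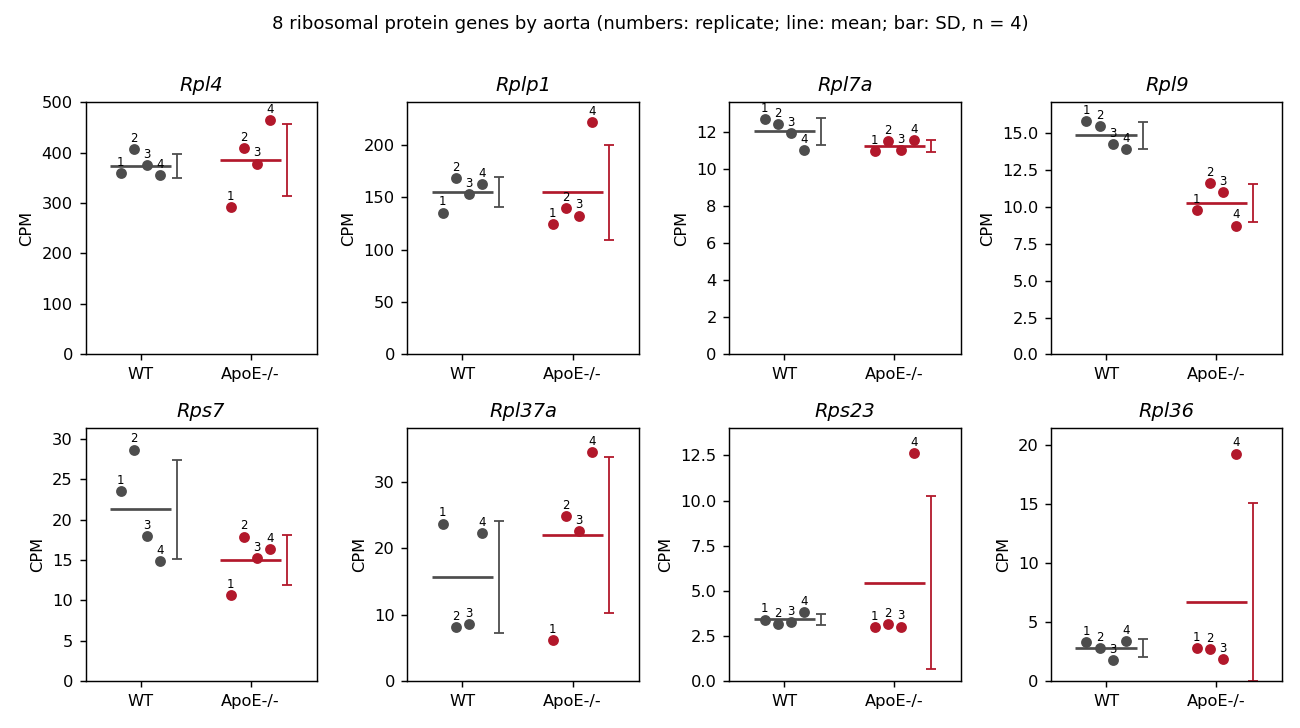
CPM (vertical axes, from 0) of 8 members in each aorta, WT in grey and ApoE-/- in red, with the replicate number beside each point, a line at the mean and a bar for the SD at its right (n = 4), which for Rpl36 is drawn down to 0 only. Rpl9 separates the genotypes, Rpl37a separates aortas within each genotype, and Rps23 and Rpl36 are high in ApoE-/- replicate 4 alone.

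Members with a known role outside or around protein synthesis did not pass the test either. Rpl5 and Rpl11, which bind 5S ribosomal RNA and can restrain Mdm2, the inhibitor of p53, had log2 fold changes of −0.04 (95% CI −0.33 to 0.26) and −0.39 (−0.84 to 0.07). Rpl11 had 4.77 to 5.32 CPM in the 4 ApoE-/- aortas and 8.996, 5.66, 5.21 and 6.18 CPM in WT replicates 1 to 4, and WT replicate 3 was the only one within the ApoE-/- range. Without WT replicate 1 the value for Rpl11 was −0.19. Rps6, the substrate of the S6 kinases below mTORC1, had −0.18 (−0.57 to 0.22), and Rpl10, among the last proteins to join the large subunit, had −0.08 (−0.43 to 0.26). Rpl13a, which can leave the ribosome to silence inflammatory messenger RNAs, had −0.23 (−0.61 to 0.15), with 8.19 to 11.55 CPM in ApoE-/- and 10.4 to 13.4 CPM in WT. Rpsa, also known as a laminin receptor, had 0.07 (−0.36 to 0.51). Rpl38, needed for translation of Hox messenger RNAs in development, had 0.15 (−0.28 to 0.57). Rps19, a gene mutated in Diamond-Blackfan anaemia, had −0.21 (−0.57 to 0.15). Rps27a, made as a fusion with ubiquitin, had 5.52 to 6.27 CPM in ApoE-/- and 6.48 to 6.79 CPM in WT without overlap, yet its log2 fold change was only −0.17 (−0.46 to 0.12).

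Of the 6 paralogues, 3 fell below the count filter of the edgeR test and 3 were tested in it. Rpl10l, known from testis, was at 0 counts in all 8 libraries, which allows up to 3 counts per library, and Rpl39l had 0 to 4 counts. Rpl3l, known from heart and skeletal muscle, had 3 to 14 counts. Rpl7l1 had 37.3 to 52.2 CPM and a log2 fold change of −0.0018 (95% CI −0.31 to 0.30), and Rpl22l1 had 12.7 to 18.1 CPM and −0.01 (−0.35 to 0.32). Rps27l, a p53 target, ranged from 11.9 to 36.1 CPM within ApoE-/- and from 18.4 to 23.2 CPM in WT, with 0.12 (−0.57 to 0.81). Rps19 and Rps16 lay within 10 Mb of Apoe on chromosome 7, at 5.19 Mb and 8.65 Mb, with log2 fold changes of −0.21 and 0.43.

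The 3 members whose genotypes did not overlap, Rpl9, Rpl6 and Rps27a, were all lower in ApoE-/- and made up 3.75% of the members tested, while 3.3% of all genes lay wholly lower and 8.71% did not overlap in either direction. No member lay wholly higher, against 5.41% of all genes. Rpl6 had 16.7 to 20.6 CPM in ApoE-/- and 21.2 to 21.9 CPM in WT, with a log2 fold change of −0.17 (95% CI −0.39 to 0.06). These counts depended on ApoE-/- replicate 4, which was the highest of the 8 aortas for 40 of 80 members (21.5% of all genes had their highest value there). Without it, 15 members (18.8%) lay wholly lower, among 5.97% of all genes, 11 of 80 members were above 0, and the median log2 fold change was −0.19, with 0 members called by edgeR (0.0132% of all genes) and 2 by DESeq2 (Rpl9 and Rps24, where it called 4.12% of all genes). ApoE-/- replicate 1 was the lowest aorta for 46 members (57.5%, against 22.6% of all genes). Without this aorta, 44 of 80 members were above 0, the median was 0.01 (that over all genes also moved, towards 0), 5 members (6.25%) lay wholly lower, among 7.39% of all genes, and 1 lay wholly higher, where 17.3% of all genes did not overlap in either direction.

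**Figure D5:**
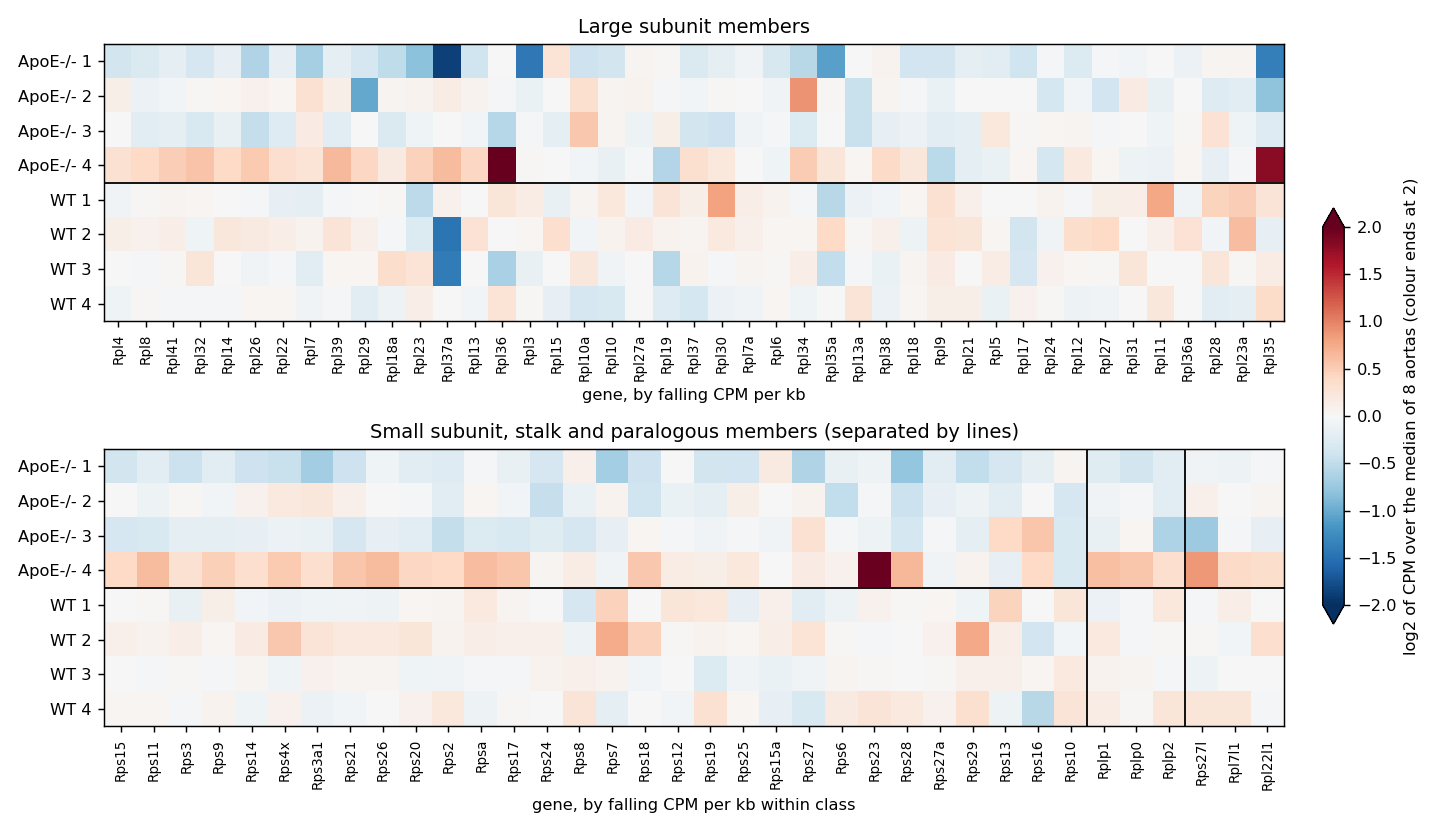
log2 of each member's CPM in each aorta (rows) over its median across the 8 aortas, red for higher and blue for lower, for 79 tested members (columns), by subunit and falling CPM per kb. The row of ApoE-/- replicate 4 is mostly red and that of replicate 1 mostly blue, while the 4 WT rows are pale except for single genes such as Rpl37a.

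The 4 ApoE-/- aortas differed more among themselves than the 4 WT aortas. The median SD of log2 CPM was 0.31 over members in ApoE-/- and 0.14 in WT, against 0.34 and 0.18 over all tested genes. The highest aorta was a median of 1.72 times the lowest for members and 1.88 times for all genes, and 17 of 80 members exceeded a ratio of 2, against 45.2% of all genes. In ApoE-/- replicate 4, 16 of 80 members (and 13.0% of all genes) were more than 1.5 times the median of the other 7 aortas. In ApoE-/- replicate 1, 12 of 80 members were below it by more than the same factor, as were 10.8% of all genes.

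The same aortas differed in cell type markers. Macrophage markers summed to 605, 1143, 1505 and 2967 CPM in ApoE-/- replicates 1 to 4 and to 377 to 526 CPM in WT. All 12 genes of that list had fitted values above 0, and edgeR called 1, Trem2. Contractile smooth muscle markers summed to 5945 CPM in ApoE-/- replicate 1, 24202, 23082 and 14517 CPM in the other ApoE-/- aortas and 13141 to 24310 CPM in WT. Of these 12 genes, 10 had fitted values below 0. Endothelial markers summed to 1991 to 2948 CPM in ApoE-/- and 2870 to 3366 CPM in WT, with 11 of 12 lower, and cardiac markers to 180 to 364 and 449 to 768 CPM, with 9 of 9 tested lower. Adipocyte markers spanned 3048 to 11520 CPM in ApoE-/- and 7501 to 14486 CPM in WT, with 9 of 10 lower. T cell markers summed to 11.6 to 18.3 and 7.98 to 12.1 CPM, and B and plasma cell markers to 226 to 317 and 210 to 241 CPM. All 9 T cell genes and all 8 B and plasma cell genes tested had fitted values above 0. Skeletal muscle markers summed to 16.7 to 36.6 and 19.4 to 33.5 CPM, with 5 higher and 4 lower. No marker of any list was at 0 in all 8 aortas. Mitochondrially encoded genes took 2.84% to 5.16% of counts in ApoE-/- and 5.52% to 6.92% in WT aortas. ApoE-/- replicate 4 was thus highest both in macrophage markers and in ribosomal proteins, and replicate 1 lowest in smooth muscle markers and in ribosomal proteins. These orders did not hold throughout. The WT aortas, lowest in macrophage markers, had member shares of 0.349% to 0.408%, above ApoE-/- replicates 1 (0.290%) and 3 (0.315%). ApoE-/- replicate 4, highest in member share, had a smaller smooth muscle sum than ApoE-/- replicates 2 and 3. The part of these cell types, and of the other library measures, in the member values was not tested.

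Other genes of the translation pathway gave no call, where edgeR called 0.464% of all 15077 genes tested. At that share, lists this short would hold few calls or none, so 0 is no result about them. Of all genes tested, 8747 were above 0. Of 40 initiation and elongation factors, all tested, 0 were called, with 26 above 0 and a median log2 fold change of 0.04, and summed CPM was 7868 ± 841 (SD, n = 4) in ApoE-/- and 7704 ± 189 in WT. The widest value was that of Eef1a2, the elongation factor of muscle and nerve, with 170 CPM in ApoE-/- replicate 1 and 1.84 to 37.1 CPM elsewhere (log2 fold change 0.93, 95% CI −1.96 to 3.82). The lowest was the helicase Eif4a1, with −0.19 (−0.47 to 0.09). Of 45 ribosome biogenesis genes, 0 were called, with 26 above 0 and a median of 0.03. Bop1, which acts in large subunit assembly, had 28.4 to 32.3 CPM in ApoE-/- and 22.6 to 26.6 CPM in WT without overlap (0.31, 0.09 to 0.52), but edgeR adjusted p was 0.219. Of all genes tested, 5.41% lay wholly higher in ApoE-/-. Riok2, a kinase of small subunit maturation, had the lowest value (−0.30, −0.55 to −0.04, edgeR adjusted p = 0.334). Of 25 regulators of ribosomal protein synthesis, 0 were called, with 10 above 0 and a median of −0.03. They ran from Gabpa, a subunit of an ETS factor, at −0.22 (−0.58 to 0.13) to Mycn at 0.49 (−1.88 to 2.87).

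The mitochondrial ribosome, which has its own set of proteins, was compared as the nearest family. Of its 78 genes, 77 were tested and 0 were called, with 39 above and 38 below 0 and a median log2 fold change of 0.0041. As edgeR called 0.464% of all genes, 0 calls among 77 are near that share. Summed CPM was 1864, 1466, 1222 and 2180 in ApoE-/- replicates 1 to 4 and 1848, 1524, 1577 and 1911 in WT, so that ApoE-/- replicate 4 was again the highest, while replicate 1 was not the lowest. Mrpl52 had the highest fitted value (0.28, 95% CI −0.0039 to 0.57) and Mrps6 the lowest (−0.31, −0.61 to −0.02), and the latter was lower in every ApoE-/- aorta, with 7.49 to 10.01 CPM against 10.53 to 11.8 CPM (edgeR adjusted p = 0.390). Among all genes tested, 3.3% lay wholly lower in ApoE-/-. Small nucleolar RNAs, which guide the modification of ribosomal RNA, lay within the genes of 30 members, 58 in all. Those 30 had a median of −0.06 with 7 above 0, and the other 50 tested members −0.02 with 17 above 0.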

How the data were processed

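Counts were the unit of all files. The authors deposited, for each aorta, the number of read pairs per gene, without normalization and without pooling. Their notes name TopHat2, HTSeq and GRCm38 (mm10), with versions not given in the sources used here. The deposited counts were named as quality-filtered, unique and stranded, and each file ended in 5 summary rows, which were left out of totals and tests. The deposited counts on genes were 27.9% to 35.6% of all pairs listed, and 11.8% to 14.3% were listed as not uniquely aligned. The limit of 3 counts beside a 0 covers counting error only.

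Groups and replicate numbers came from the labels. Counts were filtered with filterByExpr, scaled by TMM and tested with edgeR 4.0.16 (glmQLFit with robust = TRUE, glmQLFTest, genotype as the only factor, two-sided) in R 4.3.3, with Benjamini-Hochberg adjustment over all 15077 genes and a threshold of 0.05. The SE was the log2 fold change over the square root of F. log2 CPM used a prior count of 2. DESeq2 1.42.0, which the study names, and limma-voom (limma 3.58.1) were alternatives, with others of scaling and filtering, the replicate number as a block and each aorta left out. Single values per aorta were compared with an exact permutation test over 70 assignments.

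Stretches of 50 bases were compared exactly, on both strands, among GENCODE M21 transcripts in Python 3.11.15, and copies were aligned with edlib 1.3.9.post1. Of the gene identifiers, 21817 were in GENCODE M21 and 42 were not, and all 83 members were. Promoter windows came from RefSeq (GRCm38.p6), with no entry at hand for 20 members.

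Named members were the 6 highest and 6 lowest fitted values, the 4 highest and 4 lowest levels per kilobase, the widest and narrowest spread, any called member, the paralogues and 12 members with a described role. Results for 2 genes are not reported here. All other members named, and the 4 single-exon copies, were chosen after their values were seen. Lists of related genes gave their highest and lowest fitted value. The members, lists and tests were chosen with earlier results of these data known.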

Additional observations from a re-analysis of the deposited data

Results flagged for a closer look

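Dixon's ratio, the gap of the highest or lowest aorta to its neighbour over the range of its genotype, was computed for 70 groups of 4 aortas (the named members and 4 sums) and passed its 95% critical value for groups of 4 in 8. Chance passes about 5% of unselected groups, but the named members were chosen partly for wide spread or extreme fitted values, so the 8 cannot be read against that share. In ApoE-/- aortas, replicate 4 was the high value for Rps23 (ratio 0.985, 12.6 CPM against at most 3.15 CPM in the other 3), Rpl36 (0.947, 19.3 against at most 2.80 CPM), Rpl35 (0.857, 4.04 against at most 0.958 CPM) and Rplp1 (0.843, 222 against at most 140 CPM). ApoE-/- replicate 1 was the high value for Rps10 (0.911, 3.65 against at most 2.88 CPM). Among WT aortas, replicate 2 was the high value for Rpl22l1 (0.879, 17.97 against at most 14.3 CPM), for the share of counts taken by all members (0.941, 0.408% against at most 0.352%) and for the summed small subunit (0.842, 1810.2 against at most 1630 CPM).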

How the results depend on the processing

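Members called, 0 with edgeR, stayed at 0 under limma-voom, other size factors, other filters, no robust estimation and TMM without the members. DESeq2 called 1, Rpl9, and 0 once copy counts were added. Leaving out each aorta gave 0 to 2 across both tools, 0 in every case with edgeR; Rps24 was the second with DESeq2 without ApoE-/- replicate 4, and DESeq2 lost Rpl9 without WT replicate 1, 2 or 3. The number of all genes called ranged from 0 to 593 with edgeR when an aorta was left out, and the share called with DESeq2 from 2.65% to 9.18%. These fits thus differ in what they can call. The log2 fold change of Rpl9 stayed within −0.61 to −0.46 in all of them. Members without overlap were 3, became 5 with upper-quartile factors, and ranged from 4 to 15 with an aorta left out, where the share of all genes was 8.71%, 8.58% and 10.4% to 17.3%. The median log2 fold change ranged from −0.20 to 0.014 with an aorta left out and the difference in summed share (ApoE-/- minus WT) from −0.046 to 0.0044 percentage points. With all read pairs as the denominator that difference turned from −0.0154 to 0.0113 percentage points. DESeq2 without ApoE-/- replicate 1 called 1 gene each among the regulators and the mitochondrial ribosomal proteins, where the other fits called 0; that fit called 9.18% of all genes.

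With all aortas kept, only Rpl35 changed direction among 31 named members, to −0.31 with limma-voom and −0.27 with the replicate block; the cause was not tested. Leaving out an aorta changed direction for 16 named members, with ranges over both tools of −0.18 to 0.0025 for Rpl10, −0.14 to 0.082 for Rpl22l1, −0.25 to 0.00011 for Rpl28, −0.066 to 0.44 for Rpl34, −0.92 to 0.54 for Rpl35, −0.21 to 1.56 for Rpl36, −0.066 to 0.16 for Rpl4, −0.13 to 0.029 for Rpl5, −0.13 to 0.056 for Rpl7l1, −0.25 to 0.014 for Rpl8, −0.12 to 0.21 for Rplp0, −0.24 to 0.089 for Rplp1, −0.28 to 0.013 for Rps15, −0.17 to 0.88 for Rps23, −0.24 to 0.33 for Rps27l and −0.15 to 0.19 for Rpsa. Of those that kept their direction, the value moved by over 1.5 times within −0.49 to −0.19 for Rpl11, −0.34 to −0.15 for Rpl13a, −0.49 to −0.22 for Rpl23a, 0.19 to 0.80 for Rpl37a, 0.024 to 0.22 for Rpl38, −0.15 to −0.065 for Rpl7a, −0.47 to −0.12 for Rplp2, −0.32 to −0.14 for Rps19, −0.61 to −0.29 for Rps29, −0.27 to −0.071 for Rps6 and −0.65 to −0.32 for Rps7.

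The replicate numbers belong to different mice. Same-numbered deviations correlated at 0.06, −0.45, 0.32 and 0.16 for replicates 1 to 4, so the numbers were not read as pairs. With the replicate block 0 members were called, the median was −0.07, and 2 genes were called in all. The fits with copy counts added, DESeq2 with an aorta left out and the members with at least 50% unique stretches (52 tested, median −0.04) were chosen after seeing the data. Depth limits the low members most, with 18 to 32 counts per library for Rpl23a and 11 to 93 for Rpl35.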

Other observations

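Genes that the naming rule left out were read beside the family. Fau, a fusion of a ubiquitin-like protein with a small subunit protein, had a log2 fold change of −0.04 (95% CI −0.45 to 0.38) and Rpl36al, a retrogene of Rpl36a, had 0.31 (−0.42 to 1.04) at 0.574 to 1.27 CPM. Rack1, a signalling scaffold bound to the small subunit, had 270, 373, 341 and 501 CPM in ApoE-/- replicates 1 to 4 and 346 to 378 CPM in WT. It followed the order of Rplp0 at the ends, lowest in ApoE-/- replicate 1 and highest in replicate 4, and had a log2 fold change of 0.05 (−0.38 to 0.49).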
